A study of Rattus norvegicus with 18 samples.

Results

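Rats inhaled diluted cigarette smoke by nose only for 7 weeks, and gene expression in their whole lungs was set against that of rats given conditioned fresh air. The measurements are 6 of the 18 samples of a series that also covered 2 and 13 weeks, chosen by the 7 weeks in their titles. The 3 high-dose samples received 600 and the 3 low-dose samples 300 µg total particulate matter (TPM) per litre of smoke, in 2 sessions of 1 h a day on 5 days a week. Each dose was sampled at 2, 6 and 20 hours after the last session. The air groups went through the same chambers without smoke. The sources used here name no strain, sex or age of the rats. Each sample compared pooled RNA of 4 smoke-exposed rats with pooled RNA of 4 air rats on 2-colour microarrays, smoke in Cy5 and air in Cy3, and no dye swap is named.

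The value of a gene is a log2 ratio, smoke over air, in which 1 stands for a doubling. The high-dose and low-dose samples of an hour share 1 air pool, so the 6 ratios rest on 3 air pools. Closeness of both doses at an hour therefore holds the error of a common denominator. The doses were averaged at each hour to 3 values per gene, and the mean of these 3 was tested against 0 with limma, a linear model that borrows spread across genes. There is 1 sample per condition, and the spread behind each standard error (SE) holds the error between pools together with any true change over the hours. A constant dye effect adds to every ratio against air. Pooling also hides the variation between rats. The samples gave values for 3934 to 4354 named genes, sample medians lay within 0.01 of 0, and 3845 genes with all 6 values were tested. Ratios carry no level, so the labelled tissue could not be checked by how strongly its markers were expressed. The probes for surfactant proteins Sftpa1 and Sftpd gave values in all 6 samples, and the lung markers Sftpc and Scgb1a1 and the clock gene Per2 were not analysed here.

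Cigarette smoke carries aromatic hydrocarbons that bind the aryl hydrocarbon receptor (AhR), a transcription factor that then switches on detoxifying enzymes at the xenobiotic response element. Oxidants in smoke release a second factor, NRF2, which drives antioxidant genes through the antioxidant response element. Inhaled particles are taken up by alveolar macrophages, which digest cargo in lysosomes and recruit neutrophils by chemokines. The lung also has a circadian clock, in which BMAL1 and its partner CLOCK act at E-boxes and the REV-ERB repressors, encoded by Nr1d1 and Nr1d2, act on Bmal1 through ROR elements.

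Promoters of 3 genes from both systems, whose ratios varied with the hours, are shown because they hold such letters near the start of transcription. They are read from RefSeq on assembly GRCr8, from 250 bases before to 50 after the start, 5′ to 3′ on the gene's strand. The motifs searched on both strands were GCGTG (core of the xenobiotic response element), TGACNNNGC (core of the antioxidant response element), CACGTG (E-box), TAGGTCA (core of the ROR element) and TTANGTAA (D-box), and capitals mark each match. Nqo1 lies on chr19:52220218-52220517, minus strand, and has 1 match to the first motif, read on the other strand as CACGC. Bmal1 lies on chr1:176766078-176766377, plus strand, and has 1 match to TAGGTCA. Tef lies on chr7:115206577-115206876, plus strand, and has 1 match to CACGTG and 1 to CACGC.
Nqo1: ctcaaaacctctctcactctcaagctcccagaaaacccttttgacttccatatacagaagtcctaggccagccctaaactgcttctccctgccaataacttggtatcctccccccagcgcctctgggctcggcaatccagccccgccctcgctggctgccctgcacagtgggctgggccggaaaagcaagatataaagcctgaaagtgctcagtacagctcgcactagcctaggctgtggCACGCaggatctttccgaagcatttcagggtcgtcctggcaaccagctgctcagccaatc
Bmal1: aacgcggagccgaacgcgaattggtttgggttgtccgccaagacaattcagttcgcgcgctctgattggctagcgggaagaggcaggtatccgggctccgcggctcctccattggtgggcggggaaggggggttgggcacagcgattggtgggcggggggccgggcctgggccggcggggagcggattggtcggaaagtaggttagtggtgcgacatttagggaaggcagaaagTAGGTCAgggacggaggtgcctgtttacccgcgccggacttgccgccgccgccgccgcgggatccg
Tef: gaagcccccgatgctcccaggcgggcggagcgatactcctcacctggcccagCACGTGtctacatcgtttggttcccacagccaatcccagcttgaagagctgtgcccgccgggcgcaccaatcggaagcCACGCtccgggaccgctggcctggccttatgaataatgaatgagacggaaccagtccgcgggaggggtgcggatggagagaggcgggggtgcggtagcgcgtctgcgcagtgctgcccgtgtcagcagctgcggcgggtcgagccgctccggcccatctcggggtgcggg
Of 33469 promoters of this length, 29.7% hold GCGTG, 12.1% TGACNNNGC, 6.42% CACGTG, 2.63% TAGGTCA and 2.24% TTANGTAA on either strand, so a match to the first is common. Among clock genes with wider swings than Tef, the Dbp promoter held 2 matches to GCGTG and 0 to the 3 clock motifs, and that of Nr1d2 held 0 to any of them. The matches describe letters and are not shown here to be bound.

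At 2 hours after the last session the 2 highest ratios among the tested genes were those of the detoxifying enzymes Cyp1a1 and Aldh3a1, and at 20 hours both were close to air. Cyp1a1, the cytochrome P450 that oxidises aromatic hydrocarbons, had log2 ratios of 5.95, 4.07 and 0.10 at 2, 6 and 20 hours at the high dose and 5.84, 4.03 and -0.10 at the low dose. The doses lay within 0.20 of each other at each hour, whereas the hours were nearly 6 log2 units apart. Aldh3a1, an aldehyde dehydrogenase, had 5.07, 1.74 and 0.30 at the high dose and 4.84, 1.70 and 0.33 at the low dose. The 6 hour ratio of Aldh3a1 was thus far lower than its 2 hour ratio, while Cyp1a1 was still 4.05 above air at 6 hours in the average of both doses. Nqo1, a quinone reductase under both AhR and NRF2, had 2.96, 1.73 and 0.57 at the high dose and 2.42, 1.62 and 0.36 at the low dose, above air in all 6 samples. Since hours had 1 air pool each, these orders are descriptions without a test.

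The mean over the 3 hours describes such genes poorly, and none of these 3 passed limma against air. Cyp1a1 had a mean of 3.31 ± 0.91 (SE of the 3 averages, adjusted p = 0.137 by limma) and Aldh3a1 one of 2.33 ± 0.72 (adjusted p = 0.177). Nqo1 had 1.61 ± 0.34 (adjusted p = 0.0631). After 2 weeks of exposure the averages of both doses for Cyp1a1 were 4.98, 4.26 and -1.23 at 2, 6 and 20 hours, and after 13 weeks 6.34, 3.52 and 0.56. The early high ratio thus appeared in each of the 3 weeks, which rest on separate air pools, and the 20 hour value varied most between them. Nqo1 had 2.86, 1.62 and 0.20 after 2 weeks and 2.57, 1.57 and 0.24 after 13 weeks.

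The other tested genes of the AhR list, Ugt1a6 and Cyp1b1, had much smaller ratios at 2 hours. In the average of both doses they too were highest at 2 hours and lowest at 20 hours. Ugt1a6, a glucuronosyltransferase, was modest at every hour, with 0.71, 0.55 and 0.46 at the high dose and 0.38, 0.29 and 0.29 at the low dose. All 6 samples lay above air, and Ugt1a6 rose in the test (0.45 ± 0.08, adjusted p = 0.0406 by limma). Cyp1b1, a further AhR target of the P450 family, had 0.46, 0.15 and -0.01 at the high dose and 0.32, 0.16 and -0.07 at the low dose. Its mean of 0.17 ± 0.10 did not pass (adjusted p = 0.502), and its 20 hour values lay just below air where its 2 hour values lay above. Ndrg4, a gene outside the lists, shared the early form with ratios of 1.95, 0.04 and 0.07 at the high dose and 1.73, 0.01 and 0.33 at the low dose.

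**Figure D1:**
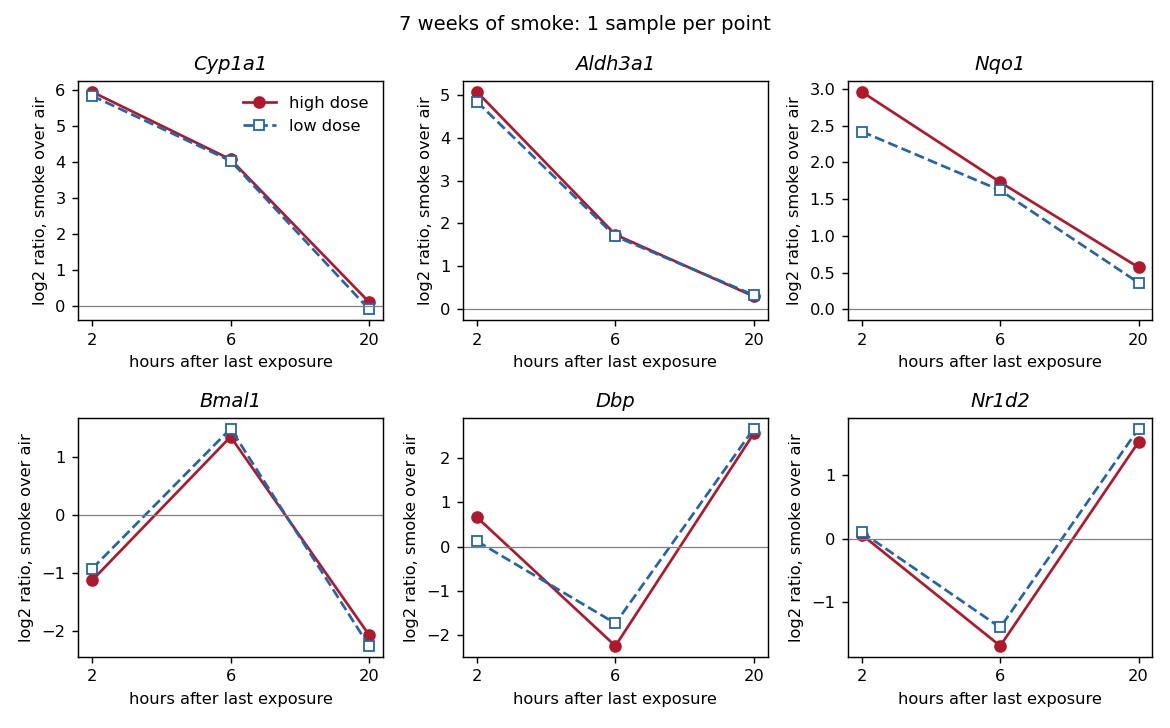
Log2 ratios, smoke over air, against hours after the last exposure in rats exposed for 7 weeks, 1 sample per point (filled red circles, high dose; open blue squares, low dose; the grey line marks air; the hours are evenly spaced and the vertical scales differ). Cyp1a1, Aldh3a1 and Nqo1 were highest at 2 hours, Bmal1 stood above air at 6 hours alone, and Dbp and Nr1d2 stood below air at 6 hours and above it at 20 hours.

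The clock list held 6 of the 3845 tested genes. Of the 10 genes with the widest swing between hours that both doses ordered alike, 3 belonged to the circadian clock. The shared air pool of an hour enters that likeness. In these 3 genes the sign of the ratio turned. Bmal1, the activating arm of the clock, had -1.12, 1.35 and -2.06 at 2, 6 and 20 hours at the high dose and -0.92, 1.49 and -2.25 at the low dose. Dbp, an output factor that the clock drives through E-boxes, ran the opposite way, with 0.66, -2.25 and 2.56 at the high dose and 0.12, -1.74 and 2.67 at the low dose. Nr1d2, the REV-ERB beta repressor, had 0.06, -1.69 and 1.52 at the high dose and 0.10, -1.40 and 1.73 at the low dose. Bmal1 was thus above air at 6 hours where Dbp and Nr1d2 were below it, and the reverse held at 20 hours. Tef, a factor related to Dbp, had 0.79, -0.38 and 1.23 at the high dose and 0.15, -0.40 and 1.03 at the low dose, and so shared the signs of Dbp at every hour.

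The means of Bmal1 (-0.58 ± 0.55, adjusted p = 0.69 by limma), Dbp (0.34 ± 0.69, adjusted p = 0.877), Nr1d2 (0.05 ± 0.48, adjusted p = 0.971) and Tef (0.40, adjusted p = 0.502) did not pass, since values of opposite sign cancel in them. The 6 hour average of Bmal1 was 1.42 at 7 weeks, beside 0.68 at 2 weeks and 1.43 at 13 weeks. Its 20 hour average was -2.15 at 7 weeks, beside -2.19 at 2 weeks and -1.65 at 13 weeks. Dbp at 6 hours had -1.99 at 7 weeks, -1.11 at 2 weeks and -1.99 at 13 weeks. The alternation of signs at 6 and 20 hours was thus there in each of the 3 weeks with its own air pools. The sources used here do not say whether smoke and air rats were killed at the same clock time at each hour.

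The clock list held 6 tested genes, of which 1 fell and 0 rose. That gene was Nr1d1, the REV-ERB alpha repressor, with -0.79, -0.89 and -0.66 at the high dose and -0.43, -0.36 and 0.04 at the low dose. Its mean of 2 probes was -0.51 ± 0.09 (adjusted p = 0.0406 by limma), and the 20 hour low-dose sample lay just above air. Thra, the thyroid hormone receptor alpha, fell beside it, with -0.71, -0.97 and -0.49 at the high dose and -0.06, -0.49 and -0.38 at the low dose. Its mean was -0.52 ± 0.09 (adjusted p = 0.0427). Nr1d1 and Thra are overlapping neighbours in the GRCr8 gene table, and the strand that the probes read is not stated in the sources used here. The 2 falls may therefore not be separate measurements.

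Of the 3845 genes tested, 76 passed an adjusted p of 0.05 against air, 1.98% of all. Of these 61 rose (1.59% of all) and 15 fell (0.39%). Among the rises were genes of acute phase defence, complement, macrophages and lysosomes, and 46 of the rises were at least 1.5-fold and 13 at least 2-fold. The falls were smaller, 4 of at least 1.5-fold and 1 of at least 2-fold. Of the rises 60 lay above air in all 6 samples and of the falls 13 below air in all 6, beside 6.87% and 5.62% of all tested genes. These counts use the ratios that called the genes, so a high share follows from the calling and carries no test. The median of all tested genes was 0.01. An unadjusted p under 0.05 was found for 559 genes. The spread over the hours enters the test. The averages of 19 genes, 0.494% of those tested, ranged over more than 1.5 log2 units across the hours. Of these 1 passed (5.26%), beside 1.98% of all tested genes. A count of 1 does not show how a wide range bears on the calls. The count depended on the samples used. Without the 20 hour samples Lcn2 alone passed, without the 6 hour samples 3 genes did (Lcn2, Lgals3 and Spon2) and without the 2 hour samples 24, while the low dose alone gave 6 (Lcn2, Lgals3, Cd68, Ctsd, Naaa and Tnfaip2) and the high dose alone 96.

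Lcn2, the siderophore-binding protein lipocalin 2 of innate defence, rose most. Its log2 ratios were 3.71, 3.17 and 2.56 at 2, 6 and 20 hours at the high dose and 1.93, 1.85 and 2.20 at the low dose. All 3 high-dose samples exceeded all 3 low-dose samples, and the lowest of the 6 was still above 3-fold of air. The mean was 2.57 ± 0.10 (5.94-fold, adjusted p = 6.83e-05 by limma). Complement component C3, the hub of the complement cascade, had 2.49, 2.24 and 1.21 at the high dose and 2.42, 0.99 and 0.56 at the low dose. Its ratios declined over the hours at both doses, and it is the 1 gene with a range above 1.5 that passed (1.65 ± 0.25, adjusted p = 0.0211).

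Macrophage genes gave the next group of rises. Lgals3, the lectin galectin-3 of activated macrophages, had 1.76, 1.48 and 1.41 at the high dose and 1.17, 1.26 and 1.14 at the low dose, a mean of 1.37 ± 0.08 (adjusted p = 0.000672 by limma). The doses did not overlap and the hours barely moved it. Cd68, a lysosomal membrane glycoprotein of macrophages, had 1.65, 1.07 and 1.21 at the high dose and 0.99, 0.91 and 0.94 at the low dose, with a mean of 1.13 ± 0.09. The lysosomal protease cathepsin D, Ctsd, had 1.34, 1.37 and 0.88 at the high dose and 0.91, 0.92 and 0.78 at the low dose, and rose by 1.03 ± 0.09. Naaa, a lysosomal amidase that hydrolyses fatty acid ethanolamides, had 1.17, 1.23 and 1.31 at the high dose and 1.41, 0.87 and 0.88 at the low dose. Its doses overlapped, and its mean was 1.15 ± 0.09.

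Chemokines and genes that make or remove oxidants followed. Cxcl1, which attracts neutrophils, had 1.82, 1.75 and 0.80 at the high dose and 1.51, 1.53 and 0.52 at the low dose. The 2 and 6 hour samples were alike and the 20 hour samples lower, and the mean was 1.32 ± 0.19 (adjusted p = 0.0173 by limma). Its 3 probes hold the same values in 5 of 6 samples and are in effect 1 measurement. Ccl3, which attracts monocytes and macrophages, had 1.57, 0.96 and 0.97 at the high dose and 1.41, 0.77 and 0.59 at the low dose (1.05 ± 0.14, adjusted p = 0.0131). Sod2, the mitochondrial superoxide dismutase, peaked at 6 hours at both doses, with 1.23, 2.21 and 0.91 at the high dose and 0.54, 1.14 and 0.67 at the low dose (1.12 ± 0.16). Noxo1, an organiser of the NOX1 oxidase, had 1.57, 1.86 and 0.82 at the high dose and 0.93, 0.85 and 0.16 at the low dose (1.03 ± 0.16). The 12 largest rises were completed by the fetuin Fetub (1.05 ± 0.10) and the complement regulator C4bpa (1.01 ± 0.09).

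The largest fall was in Spon2, which encodes the extracellular matrix protein spondin 2. It had -1.69, -1.0 and -1.60 at the high dose and -1.56, -0.60 and -1.15 at the low dose, least negative at 6 hours at both doses, and a mean of -1.27 ± 0.15 (adjusted p = 0.00828 by limma). Mal, a membrane protein of lipid rafts in T cells and epithelium, had -1.15, -0.56 and -0.86 at the high dose and -0.92, -0.23 and -0.43 at the low dose (-0.69 ± 0.12). Adgre1 encodes a surface receptor of macrophages, and unlike Cd68 and Lgals3 it fell. Its ratios were -1.0, -0.51 and -0.81 at the high dose and -0.45, -0.51 and -0.56 at the low dose (-0.64 ± 0.08, adjusted p = 0.0131).

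Cyp4b1, a P450 of lung epithelium, fell, unlike the early ratios of Cyp1a1, with -0.58, -0.49 and -0.79 at the high dose and -0.67, -0.34 and -0.76 at the low dose (-0.61 ± 0.09, adjusted p = 0.0242 by limma). Its doses lay close together at every hour. The scavenger receptor Colec12 (-0.56 ± 0.08), the leucine-rich repeat protein Lrrn3 (-0.58 ± 0.09), the collagen chain Col5a2 (-0.51 ± 0.08) and the vascular receptor gene Calcrl (-0.46 ± 0.08) each fell, by less than 1.5-fold. Of the 12 lymphocyte markers 11 had a mean below air, but only Lck passed as a fall. This T cell kinase had -0.86, -0.56 and -0.47 at the high dose and -0.56, -0.18 and -0.49 at the low dose (-0.52 ± 0.09, adjusted p = 0.0395). Outside that list, the T cell adaptor Lat had -0.49, -0.56 and -0.29 at the high dose and -0.51, -0.36 and -0.38 at the low dose (-0.43 ± 0.08), and the integrin chain Itga4, used by lymphocytes to leave vessels, had a mean of -0.55 ± 0.10. In whole lung, fewer cells of a type and less RNA per cell cannot be told apart.

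**Figure D2:**
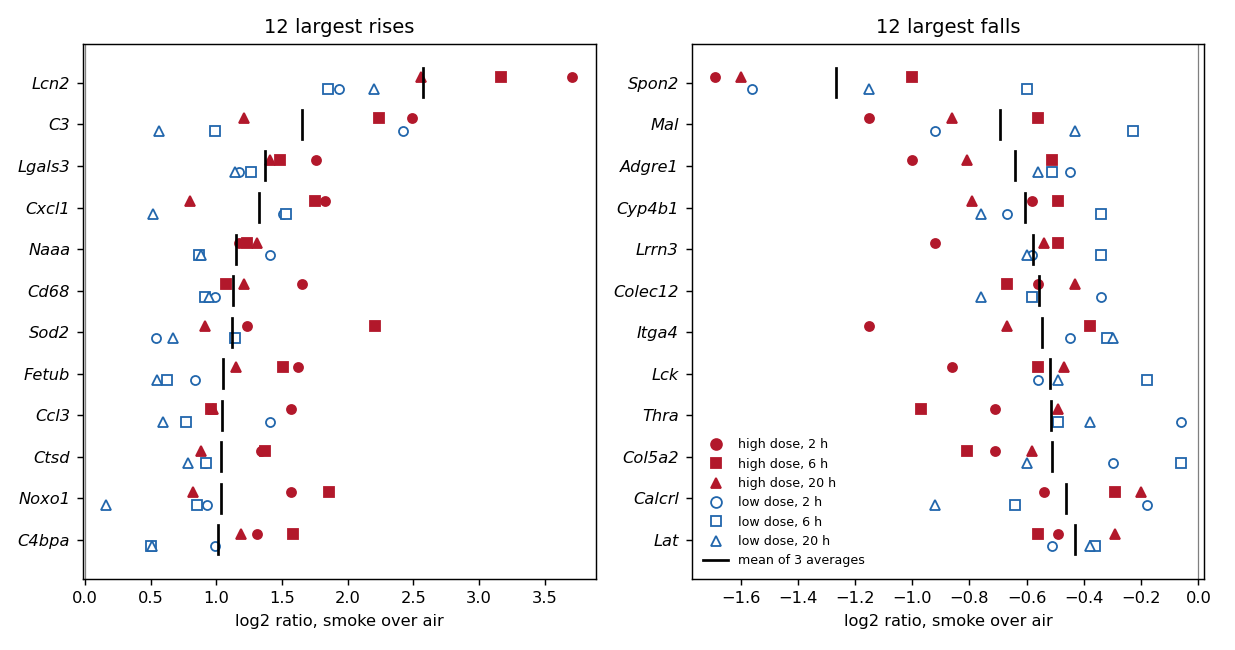
Log2 ratios, smoke over air, of the 12 largest rises (left) and the 12 largest falls (right) among genes that passed limma at 7 weeks with the same sign in all 6 samples (red filled symbols, high dose; blue open symbols, low dose; circles 2, squares 6 and triangles 20 hours; black bars, the mean of the 3 averages; horizontal scales differ). Lcn2 spans 1.85 to 3.71, with a mean of 2.57 beside 1.65 for C3, and Spon2 spans -1.69 to -0.60.

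Genes were also grouped by function in 28 lists, of which 346 distinct genes were tested. Some genes stand in more than 1 list, and 46 of the 76 genes that passed stand in at least 1. Each list below is set beside the 1.59% of all tested genes that rose, the 0.39% that fell and the median of 0.01. The lists were chosen with earlier results of these data known, so an excess over these shares is no independent finding. Of all 3845 tested genes, 559 had an unadjusted p under 0.05, 1985 had a mean above air and 1860 a mean below it. A prior that allows for genes of unusual spread (the robust prior) called 122 of them.

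Of 16 acute phase and complement genes tested, 9 rose and 0 fell, the highest count and share of rises among the lists, with a median of 0.65. The AhR list had the higher median. Besides Lcn2, C3 and C4bpa they were the C3b protease Cfi (0.93 ± 0.09), haptoglobin Hp (0.74), the immunoglobulin transporter Pigr (0.66 ± 0.12) and the 3 chains of the C1q recognition molecule, C1qa (0.62), C1qb (0.68) and C1qc (0.69). Hp had 0.82, 1.01 and 1.15 at 2, 6 and 20 hours at the high dose and 0.16, 0.56 and 0.77 at the low dose, so that its order over the hours was the opposite of that of C3. The other 7 did not pass, among them ceruloplasmin Cp with a mean of -0.30 and A2m with -0.16. An unadjusted p under 0.05 was found for 11 of the 16.

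Of 14 macrophage markers, 6 rose and 1 fell, with a median of 0.43. The rises were Lgals3, Cd68, Ctsd, the lysozyme Lyz2 (0.64 ± 0.08), the endotoxin co-receptor Cd14 (0.60) and the macrophage elastase Mmp12. Mmp12 had 0.97, 0.71 and 1.23 at the high dose and 0.46, 0.14 and 0.10 at the low dose, with no overlap between the doses (0.60 ± 0.09, adjusted p = 0.0211 by limma). Adgre1 was the fall, and Spp1, the secreted phosphoprotein osteopontin, had 0.41, -0.12 and -0.18 at the high dose and 0.88, 0.74 and 0.50 at the low dose. Its mean of 0.37 ± 0.11 did not pass (adjusted p = 0.156), and it was the low dose that lay higher. Of 15 lysosomal genes, 5 rose and 0 fell, with a median of 0.41. They were Ctsd, the cathepsins Ctsz (0.69 ± 0.08), Ctss (0.67 ± 0.09) and Ctsb, and the membrane protein Cd63 (0.65 ± 0.08). Of 17 genes of lipid handling, 2 rose, the fatty acid binding protein Fabp5 (0.82 ± 0.14) and the cholesterol exporter Abcg1 (0.73 ± 0.08), with a median of 0.13. An unadjusted p under 0.05 was found for 11 of the macrophage markers, 11 of the lysosomal genes and 8 of the lipid genes.

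Of 21 genes of NRF2 and oxidative stress defence, 5 rose and 0 fell, with a median of 0.34. They were Sod2, the metallothionein Mt1 (0.85 ± 0.08), the ferritin light chain Ftl1 (0.78 ± 0.08), the thioredoxin Txn1 (0.54) and haem oxygenase Hmox1. Hmox1 had 1.88, 0.86 and 0.34 at the high dose and 0.55, 0.48 and 0.48 at the low dose. It thus declined over the hours at the high dose alone, and its mean was 0.76 ± 0.14 (adjusted p = 0.0476 by limma). Of 12 glutathione S-transferases 1 rose, Gstp1 (0.73 ± 0.10), with a median of 0.22. Of 15 other enzymes of xenobiotic metabolism 0 rose and 1 fell, Cyp4b1, with a median of -0.07. Of 5 AhR targets 1 rose, Ugt1a6, with a median of 1.61. In these lists, in the order given, 15, 9, 6 and 4 members had an unadjusted p under 0.05.

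Of 8 chemokines 3 rose and 0 fell, Cxcl1, Ccl3 and Ccl9 (1.00 ± 0.10), with a median of 0.33. Ccl2, a monocyte attractant, had 0.26, 0.10 and 0.25 at the high dose and -0.27, 0.10 and 0.38 at the low dose and did not pass (0.14 ± 0.09, adjusted p = 0.553 by limma). Of 12 cytokines and receptors 3 rose, Tnfsf13 (0.83 ± 0.10), the decoy receptor of interleukin 1, Il1r2 (0.82 ± 0.10), and Il18 (0.58 ± 0.10), with a median of 0.17. An unadjusted p under 0.05 was found for 6 of the chemokines and 5 of the cytokines and receptors. Of 8 neutrophil markers 0 passed limma and 4 had an unadjusted p under 0.05, with a median of 0.17. With the robust prior 1 passed, the chemokine receptor Cxcr2 (0.52). Its probes differed, with means over the 6 samples of 0.79 and 0.25, and read 1.29 and -0.14 at the low dose at 2 hours. On the same list S100a9, a calcium-binding protein of neutrophils, had 0.82, 3.31 and 1.47 at the high dose and -0.23, 0.65 and 0.94 at the low dose. Its mean of 1.16 ± 0.26 did not pass (adjusted p = 0.0785), and the highest of its ratios was that of the 6 hour high-dose sample.

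Of 12 lymphocyte markers 0 rose and 1 fell, Lck. However, 11 had a mean below air, 8 had an unadjusted p under 0.05 and the median was -0.42. The sample medians of this list ran from -0.85 in the 2 hour high-dose sample to -0.05 in the 6 hour low-dose sample. Cd3g, a T cell receptor chain chosen after its values were seen, had -1.18, -0.81 and -0.23 at the high dose and -0.79, -0.20 and 0.07 at the low dose. Its mean of -0.52 did not pass (adjusted p = 0.163 by limma). Of 8 genes of antigen presentation and the interferon response 2 rose, Cd74 (0.50 ± 0.09) and RT1-Da (0.41 ± 0.08), both of the class II pathway, with a median of -0.02. Of these 8, 4 had an unadjusted p under 0.05.

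Among genes of lung structure, 2 of 6 alveolar epithelial genes rose and 4 had an unadjusted p under 0.05. The rises were the surfactant proteins Sftpd (0.63 ± 0.09) and Sftpa1 (0.60 ± 0.09), collectins that also bind microbes, with a median of 0.14. Of the 6 means 3 lay below air, the lowest at -0.28, and Napsa passed with the robust prior alone. Of 4 airway genes 0 passed limma and 2 had an unadjusted p under 0.05, with the cilia regulator Foxj1 at 0.49 ± 0.10 (adjusted p = 0.0631), which passed with the robust prior. Of 17 endothelial and vessel wall genes 0 passed limma with either prior and 5 had an unadjusted p under 0.05. Their median was -0.12, and Vegfa lay below air in all 6 samples at -0.34 ± 0.08 (adjusted p = 0.0858). Of 22 genes of the extracellular matrix and its proteases 1 rose, Mmp12, and 2 fell, Spon2 and Col5a2, and 12 had an unadjusted p under 0.05. The matrix list had a median of -0.21, and 18 of its 22 means were below air. Of 15 genes of Wnt and other secreted signals 1 fell, Colec12, with a median of -0.11, and 4 had an unadjusted p under 0.05.

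Lists of stress and growth genes follow. Of 23 heat shock and unfolded protein genes 1 rose, Hspa1a (0.59 ± 0.09), 7 had an unadjusted p under 0.05 and 22 a mean above air, with a median of 0.15. Of 12 glucocorticoid-responsive genes 2 rose, Lcn2 and Mt1, which also stand in other lists, and 7 had an unadjusted p under 0.05, with a median of 0.17. Of 22 genes of p53, DNA damage and apoptosis, 12 of the cell cycle, 13 immediate early genes, 21 of the respiratory chain and 11 reference genes, 0 passed limma, with list medians between 0.00 and 0.10. By list, 5, 1, 2, 0 and 3 members had an unadjusted p under 0.05, and the robust prior called Bid and Gapdh alone. In these 5 lists the highest means were 0.41 for Bid, 0.37 for Aurka, 0.36 for Ier3, 0.22 for Cox5b and 0.38 for Gapdh. Markers of tissue that can be carried along with the lung did not pass either. A test of the mean over the hours cannot show such tissue where its share varies between samples. Of 6 striated muscle markers 0 passed with either prior and 0 had an unadjusted p under 0.05, with sample medians from -0.14 to 0.31 and Mb at 0.29. Of 4 blood markers 0 passed with either prior and 1 had an unadjusted p under 0.05, with sample medians from -0.03 to 0.27 and Pf4 at 0.21. Csrp3, a striated muscle gene outside these lists, varied widely between samples, and its ratios are given at the end. The part of muscle and blood genes in the results was not tested.

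Of the 76 genes that passed, 30 stand in no list, and those named here were chosen after their values were seen. Several belong to immune cells, such as the immunoglobulin receptor Fcgr2a (0.92 ± 0.11, adjusted p = 0.00828 by limma), the survival factor Bcl2a1 (0.92 ± 0.11), the lymphoid and myeloid transcription factor Batf (0.72 ± 0.09) and the oxidase subunit Cyba (0.61 ± 0.08). Others act on lipids or glutathione, such as the lysophospholipase Enpp2 (0.86 ± 0.15), which makes lysophosphatidic acid, and the glutathione-cleaving transferase Ggt1 (0.81 ± 0.13). The calcium channel Trpv2 (0.84 ± 0.08) and the phosphatase Acp5 (0.70 ± 0.10) rose as well. Slc6a4, the serotonin transporter of lung endothelium and platelets, fell with ratios of -0.76, -0.69 and -0.60 at the high dose and 0.01, -0.42 and -0.25 at the low dose (-0.45 ± 0.08, adjusted p = 0.0405). Its low-dose samples all lay nearer to air than its high-dose samples.

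**Figure D3:**
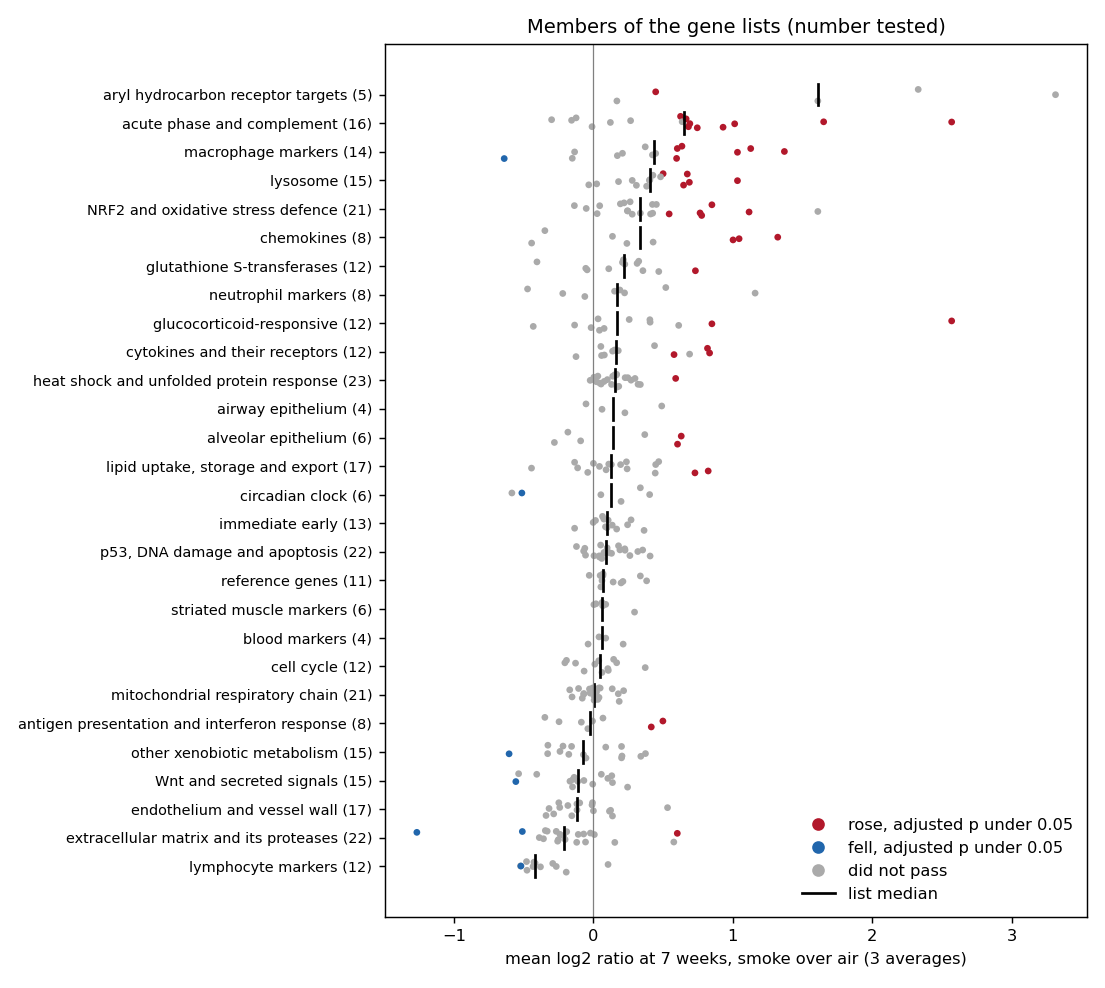
Mean log2 ratios, smoke over air, at 7 weeks for the tested members of 28 gene lists, 1 point per gene, with the number tested in brackets (red, rose at an adjusted p under 0.05; blue, fell; grey, did not pass; black bars, list medians; points are spread vertically for legibility). The acute phase list has the most rises, 9 of 16, and the lymphocyte list the lowest median, -0.42.

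The doses were compared by the 3 differences, high minus low, 1 per hour, in which the shared air pool and a constant dye effect cancel. High-dose rats had the larger mean change in 58 of the 61 rises and 13 of the 15 falls. These counts use the values that called the genes, have no share of all tested genes beside them and carry no test. The median high-minus-low difference of all tested genes was 0.003. In the test of the difference itself, 0 of 3845 genes passed limma (0% called), 325 had an unadjusted p under 0.05, and the smallest adjusted p was 0.0912. With a prior that allows for genes of unusual spread (robust limma) 10 genes passed, 7 of them higher at the high dose.

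Of the 8 genes with the smallest p between the doses, 7 passed with the robust prior, Lcn2 being the exception, and 5 had also risen against air. The high-dose ratio of Lcn2 exceeded the low-dose ratio by 1.15 log2 units (95% interval 0.69 to 1.62, adjusted p = 0.0982 by limma), Noxo1 by 0.77 (0.48 to 1.06) and Fetub by 0.76 (0.48 to 1.03). Il1r2 differed by 0.69 (0.41 to 0.97) and Pigr by 0.76 (0.45 to 1.08). For Pigr the high-dose ratios were 1.05, 1.26 and 0.83 and the low-dose ratios 0.62, 0.43 and -0.20, so the doses did not overlap. Trim25, a ubiquitin ligase of antiviral signalling, had 0.49, 0.99 and 0.11 at the high dose and -0.15, 0.03 and -0.94 at the low dose, a difference of 0.88 (0.59 to 1.17) between doses that straddle air. Adora2b, an adenosine receptor, differed by 0.86 (0.51 to 1.22). Eno3, the muscle enolase, was the one lower at the high dose, with -1.0, -0.67 and -0.54 at the high dose and -0.15, -0.04 and 0.31 at the low dose, by -0.78 (-1.05 to -0.50).

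The enzymes with the highest early ratios differed much less between the doses. The high-minus-low difference was 0.12 for Cyp1a1 (95% interval -0.15 to 0.39, adjusted p = 0.872 by limma), 0.08 for Aldh3a1 (-0.20 to 0.36) and 0.29 for Nqo1 (-0.01 to 0.58). For the clock genes it was -0.05 for Bmal1 (-0.34 to 0.24) and -0.03 for Dbp (-0.41 to 0.36). For Spp1 it was -0.67 (-0.96 to -0.38, adjusted p = 0.111) and for Mmp12 0.74 (0.41 to 1.06, adjusted p = 0.122). Both of these passed under the robust prior, in opposite directions. The intervals of Cyp1a1 and Lcn2 do not overlap, but the difference between the genes was not tested.

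**Figure D4:**
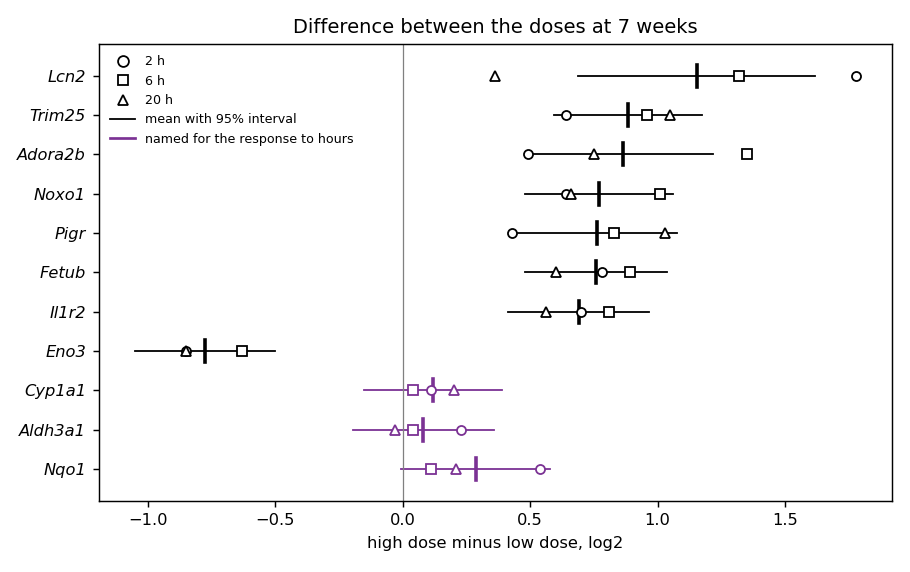
Differences in log2 ratio at 7 weeks, high dose minus low dose, at 2, 6 and 20 hours (circles, squares and triangles) with the mean and its 95% interval from limma (bars and lines). The 8 genes with the smallest p are black and 3 enzymes that vary with the hours are purple. Lcn2 differs by 1.15 and Eno3 by -0.78, whereas the interval of Cyp1a1, -0.15 to 0.39, holds 0.

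The 7 week values were last set against those of the other durations, over 9 averages of both doses with the hour as a covariate, for 3939 genes. Each week had its own air pools, so pool and week cannot be told apart for a single gene at a single hour. Against 2 weeks 4 genes passed (0.102% called), and all 4 were higher at 7 weeks. By the same test 292 genes had an unadjusted p under 0.05.

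S100a9 and S100a8 encode the 2 subunits of calprotectin, a protein that neutrophils carry in bulk. S100a9 averaged 0.29, 1.98 and 1.21 at 2, 6 and 20 hours at 7 weeks, against -1.42, 0.59 and -0.42 at 2 weeks. The rise over 2 weeks was 1.57 ± 0.18 (adjusted p = 0.00464 by limma) and was present at each hour. Without the hour as a covariate neither S100a9 nor S100a8 passed, while Lcn2 and Lgals3 did. S100a8 averaged -0.59, 0.78 and 0.39 at 7 weeks, against -1.70, 0.06 and -0.78 at 2 weeks, a rise of 0.99 ± 0.12 (adjusted p = 0.00464). At both durations the 2 hour sample was the lowest and the 6 hour sample the highest. At 2 weeks both genes lay below air at 2 and 20 hours, and at 7 weeks S100a8 alone did so, at 2 hours. Against air, S100a8 at 7 weeks had a mean of 0.19 ± 0.22 (adjusted p = 0.771).

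Lcn2 averaged 2.82, 2.51 and 2.38 at 7 weeks, against 1.48, 1.60 and 1.78 at 2 weeks. Every hour was higher at 7 weeks, by 0.95 ± 0.13 in the mean (adjusted p = 0.00752 by limma). Lgals3 averaged 1.47, 1.37 and 1.28 at 7 weeks, against 0.71, 0.51 and 0.68 at 2 weeks, and was higher by 0.74 ± 0.10 (adjusted p = 0.00646). The values of Lgals3 at the 2 durations did not overlap. Without the low-dose samples S100a8 and S100a9 passed, by 1.49 and 2.10, and with the low-dose samples alone 0 genes did. Without the 20 hour samples 0 genes passed, without the 2 hour samples S100a9 alone, and without the 6 hour samples 5 genes, with S100a8 and S100a9 among them but not Lcn2 or Lgals3.

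Against 13 weeks 0 genes passed limma (0% called), 108 had an unadjusted p under 0.05, and without the 6 hour samples 1 passed. That gene was S100a9, which was lower at 7 weeks by -1.22 without the 6 hour samples (adjusted p = 0.0049 by limma) and by -0.96 ± 0.18 with all (adjusted p = 0.326). It averaged 1.61, 2.41 and 2.33 at 13 weeks, above the 7 week value at each hour. S100a8 was lower by -0.77 ± 0.12 (adjusted p = 0.121), the smallest adjusted p of that comparison. Gpr35, an orphan receptor of immune and gut cells, differed by 0.47 and the P450 Cyp2d3 by -0.42, both with an adjusted p of 0.999. Lcn2 and Lgals3 had differences of 0.23 (95% interval -0.04 to 0.51) and 0.10 (-0.11 to 0.31) between 7 and 13 weeks.

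Against the mean of both other durations 0 genes passed limma (0% called), 185 had an unadjusted p under 0.05, and 0 passed in the other limma settings tried. The smallest adjusted p was 0.527, shared by Lcn2 (higher at 7 weeks by 0.59 ± 0.11) and Lgals3 (0.42 ± 0.08). Naaa differed by 0.44 ± 0.10 and the calmodulin kinase Camk2a by 0.37 ± 0.08. In the early enzymes 7 weeks gave 5.89 for Cyp1a1 at 2 hours, beside 4.98 at 2 weeks and 6.34 at 13 weeks, and 4.95 for Aldh3a1, beside 5.90 and 5.12.

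**Figure D5:**
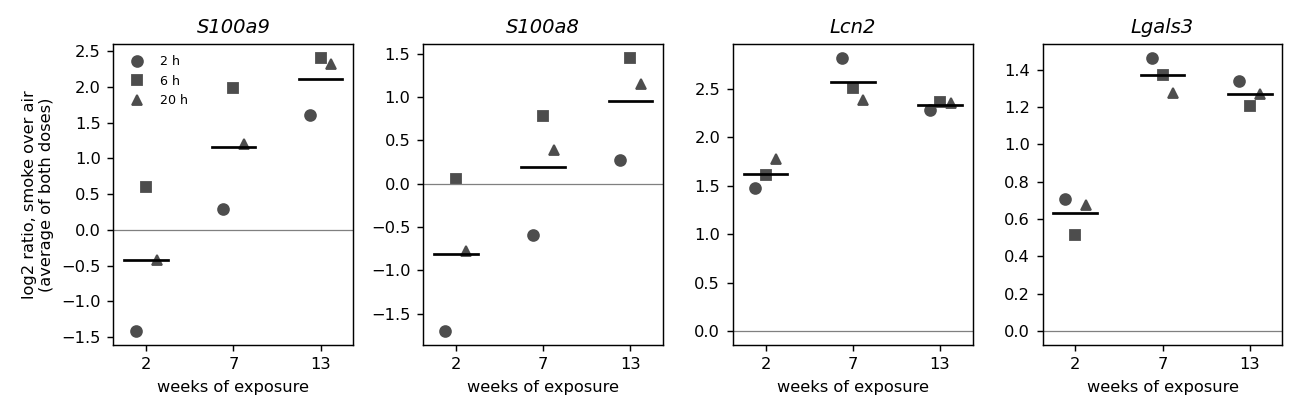
Log2 ratios, smoke over air, averaged over both doses, against weeks of exposure for the 4 genes that differed between 7 and 2 weeks (circles 2, squares 6 and triangles 20 hours; black lines, means of the 3 hours; grey line, air; vertical scales differ). S100a9 stands at -0.41, 1.16 and 2.12 after 2, 7 and 13 weeks, whereas Lcn2 and Lgals3 at 7 weeks stand at 2.57 and 1.37, close to 13 weeks.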

How the data were processed

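RNA of whole lungs was measured in 18 samples, 6 of them after 7 weeks. Per the labels' protocols, the authors pooled equal RNA of 4 rats per group, amplified it linearly, labelled smoke RNA with Cy5 and air RNA with Cy3 and split each sample over 2 PIQOR arrays. The authors deposited 1 table of 11994 rows of log2 ratios. The sources used here name no scanner, background correction or normalization. Of 257 values under -1, 100% can be had as the log2 of a ratio with 2 decimals, and column medians lie from -0.01 to 0.01. The direction, smoke over air, is taken from the dye labels. Of all cells 12.9% are empty, intensities were not analysed here, and precision is limited by the number of arrays.

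Repeated rows were merged to 5960 distinct probes, 4780 of them with a gene symbol, and a gene is the mean of its distinct probes (4616 genes). Of 9658 rows with a symbol, 9616 matched the GRCr8 gene table. Tests used limma 3.58.1 in R 4.3.3 (lmFit and eBayes, default prior, two-sided), with Benjamini-Hochberg adjustment over all genes of a comparison and a threshold of 0.05. With 3 values the smallest exact sign-flip p is 0.25, so no such test was used. Nothing says that conditions were repeated, so p-values measure the spread between pools and hours. Fits were tested on simulated data.

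The genes named are the 12 largest rises and falls past the threshold with 1 sign in all 6 samples, the 8 with the smallest p between doses, up to 8 each way or 4 by p between weeks, up to 4 per list and the 10 with the widest range over hours among those that both doses order alike, plus a fixed set of 16. The members, lists and rules were chosen with earlier results of these data known. Tef, Cd3g, Cp, A2m, Txn1 and Ctsb, and the genes of the closing section, were chosen after their values were seen. Alternatives covered each dose alone, centring, probes, missing values, the shared spread, thresholds, the prior and leaving out each hour.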

Additional observations from a re-analysis of the deposited data

Results flagged for a closer look

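After 7 weeks of smoke against 2 weeks, 4 genes differed in the limma test of the difference itself. S100a9 was higher by 1.57, S100a8 by 0.995, Lcn2 by 0.95 and Lgals3 by 0.74 on the log2 scale. Without the hour as a covariate Lcn2 and Lgals3 passed and S100a8 and S100a9 did not.

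Of the 3845 tested genes, 1057 (27.5%) had both doses on one side of air at one hour and on the other side at another. The 12 named genes given below are among them, so such a turn of sign is not particular to them. The difference between hours was not tested. Dbp was higher at 20 than at 6 hours by 4.61, Nr1d2 by 3.17 and Tef by 1.52, and Bmal1 had a difference of -3.58. Between 20 and 2 hours Thrsp, a regulator of lipid synthesis, differed by 1.95, Fabp4, a fatty acid binding protein, by 1.88, Sncg, a synuclein, by 1.71, S100a8 by 0.98, Cidec by 0.44, the muscle genes Mb and Myl2 by 0.625 and -0.35, and Cyp1b1 by -0.43. For Thrsp the 2 hour ratios were -1.47 at the high dose and -1.94 at the low dose, and for Sncg -0.89 and -1.25. Both doses of an hour share 1 air pool, so a change in the smoke rats and a departure of that air pool cannot be told apart.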

How the results depend on the processing

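The 76 genes that passed against air became 73 with each sample centred, 75 with values in at least 2 of 3 hours asked for, 105 with every probe on its own and 96 at the high dose alone (68 shared). They became 6 at the low dose alone, 175 with the spread shared by all weeks (76 shared), 326 with hours also as a factor (76 shared), 50 with 1.5-fold also asked for, 15 by the treat test against 1.2-fold and 122 with the robust prior (74 shared). Leaving out the samples of 1 hour gave 1 to 24 genes: 24 without 2 hours, 3 without 6 hours and 1 without 20 hours, with fewer values in each fit. Between the doses, 2 genes passed with values in at least 2 of 3 hours, Trim25 and Hspb3, and 10 with the robust prior, against 0. Between 7 and 2 weeks, 2 passed without the hour covariate (Lcn2 and Lgals3), 2 at the high dose alone and 0 at the low dose alone, and leaving out 1 hour gave 0 to 5, with 0 without 20 hours and 1 without 2 hours (S100a9). Between 7 and 13 weeks leaving out 1 hour gave 0 to 1.

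Against air, 12 values of genes that did not pass turned sign: at the low dose alone Trim25 (-0.35), Eno3 (0.04), S100a8 (-0.23) and Sncg (0.03), at the high dose alone Nr1d2 (-0.037), and when 1 hour was left out. Leaving out each hour in turn gave -0.12 to 0.34 for Trim25, -0.10 to 0.58 for S100a8, -0.80 to 1.502 for Dbp, -1.588 to 0.20 for Bmal1, -0.73 to 0.85 for Nr1d2, -0.83 to 0.15 for Thrsp and -0.58 to 0.27 for Sncg. The cause was not tested. Of the other values of single genes, 988 kept direction and side of the threshold, 245 lost the threshold and 45 gained it. The counts above are not part of this tally. The main limits are 3 values per gene, 1 pool per condition, no dye swap, and unknown signal intensity.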

Other observations

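Some genes known from fat tissue had low ratios at 2 hours after 7 weeks. They were chosen after their values were seen, and no list of fat tissue genes stands behind them. The list of lipid handling, which holds Fabp4, had medians above air at 2 hours, 0.23 at the high dose and 0.16 at the low dose. Ucp1, the uncoupling protein of brown fat, had log2 ratios of -3.64 and -0.20 at 2 and 6 hours and 0.24 at 20 hours at the high dose, and -3.47 and 0.12 at 2 and 6 hours at the low dose. It lacked a value in 1 sample and was not tested. Fabp4, a fatty acid binding protein of fat cells and macrophages, had -1.25, 0.43 and 0.39 at the high dose and -1.40, 0.31 and 0.71 at the low dose, with a mean of -0.14 (adjusted p = 0.897 by limma). Thrsp at 2 hours averaged -1.70 at 7 weeks, beside 0.78 at 2 weeks and 0.22 at 13 weeks, and Adipoq, the fat cell hormone adiponectin, had -0.71 and -0.54 at 2 hours at the high and low dose. Cidec, a lipid droplet protein of fat cells, had -0.23 and -0.34 in the same samples, within 1 SD over all genes (0.362 and 0.34). Their part in other results was not tested.

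Csrp3, a protein of striated muscle, was the widest of the muscle genes seen, with 0.26, 2.15 and 0.67 at the high dose and -2.94, 2.42 and 3.42 at the low dose. Of 939 probes without a gene symbol, 9 passed limma against air at 7 weeks, 5 higher and 4 lower (0.958%), with means from -1.15 to 1.16.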
